A study of Mus musculus with 407 samples.

Results

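The genes described here are 10 genes of cytotoxic T cells, out of 24458 gene symbols in the count tables of a mouse muscle ageing study: the granzymes Gzmk, Gzma and Gzmb, the T cell receptor chains Cd3e, Cd3d and Cd3g, the co-receptor chains Cd8a and Cd8b1, the granule protein gene Nkg7 and the chemokine gene Ccl5. They were selected by name, as cytotoxic T cell genes, because Gzmk stood first among the genes that rose in the ageing male diaphragm. The male diaphragm comparison of 27 with 6 months therefore chose the group, and its values are given below as a description with no test. Changes with age are tested in the female diaphragm and the limb muscles, and where male diaphragm libraries enter another comparison, it is not independent of that choice.

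Cytotoxic T cells recognise a target cell through the T cell receptor, whose signal passes into the cell through the CD3 chains, while CD8 binds the class I molecules that present the antigen. The activated cell then releases granules that hold granzymes and a pore-forming protein, and it secretes chemokines that draw in further immune cells. Healthy skeletal muscle holds few T cells, and an increase of granzyme K positive T cells with age is known from several mouse tissues.

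The mice were C57BL/6J, an inbred strain, of both sexes and of 6, 12, 18, 21, 24 or 27 months of age, with no other treatment or allele. Diaphragm, gastrocnemius, soleus and tibialis anterior were sampled, giving 48 groups of 6 to 10 libraries and 407 libraries in all, of which 204 were female and 203 male. Each library was made from total RNA of a muscle, so the values come from muscle fibres and every other cell in the sample together, and fewer cells of a type and less RNA per cell cannot be told apart. Tissues of 1 age were all taken on 1 day, so age and day of collection cannot be told apart, and the labels do not tie muscles to mice. The libraries held between 38583802 and 300089909 reads on genes (median 72766895), and levels are given as CPM, a gene's reads scaled to the library's reads on genes. Many of the limb values below rest on few reads, which limits what could be detected there.

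8 libraries stood apart from the rest, by Acta1 (skeletal muscle actin) below 33.3% of the median of their muscle or by Alb (the liver gene albumin) above 1000 CPM. They were female diaphragm 6 months replicate 2, 21 months replicate 0, 24 months replicate 3 and 27 months replicate 0, male diaphragm 6 months replicate 2, 21 months replicate 3 and 27 months replicate 6, and female soleus 18 months replicate 6. Some results below are also given without them, among them the male diaphragm count at 27 months and the slopes, ratios and correlations of female diaphragm. Where this is not said, the counts include them. The sample numbers in the labels fall into separate runs, which the labels do not explain, and the runs are unevenly spread over ages in the diaphragm. The female 6-month diaphragms had 2 libraries in the first run and 6 in the second, the female 27-month diaphragms 8 in the second and 2 in the third, and 6 of the 10 male 27-month diaphragms were in the first run.

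On the mouse genome build GRCm38 (mm10), Gzmk and Gzma are neighbours at chr13:113171630-113180965 and chr13:113093824-113100981, and Gzmb lies apart at chr14:56258836-56262334. Cd3e, Cd3d and Cd3g form a cluster at chr9:44998735-45009663, chr9:44981769-44987052 and chr9:44969572-44980431. Cd8a and Cd8b1 are also adjacent, at chr6:71373427-71379171 and chr6:71322788-71337492. Nkg7 is at chr7:43437138-43438246 and Ccl5 at chr11:83525778-83530518. Each count is over a whole gene.

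The 250 bases before the start site in RefSeq's promoter table (GRCm38.p6) are shown for Gzmk, Gzmb and Nkg7, granule genes whose levels rose with age over all 6 ages in female diaphragm (tests below), with Cd3g, a receptor chain, for contrast. None of these 4 windows overlaps an annotated gene. Capitals mark matches to TCACAC (a core of the T-box factors, such as the T-bet and Eomes proteins), TGTGGT (a core of the RUNX factors) or AGGAAG (a core of the ETS factors), searched on both strands, and a match on the opposite strand shows as the reverse complement. The windows are on the minus strand at chr13:113180966-113181215 for Gzmk, chr14:56262335-56262584 for Gzmb and chr9:44980432-44980681 for Cd3g, and on the plus strand at chr7:43436888-43437137 for Nkg7.
Gzmk: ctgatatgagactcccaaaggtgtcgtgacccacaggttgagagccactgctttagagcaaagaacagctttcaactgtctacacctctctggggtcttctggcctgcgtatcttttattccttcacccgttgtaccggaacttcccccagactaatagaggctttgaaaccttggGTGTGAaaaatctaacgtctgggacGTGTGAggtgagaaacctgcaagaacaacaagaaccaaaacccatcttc
Gzmb: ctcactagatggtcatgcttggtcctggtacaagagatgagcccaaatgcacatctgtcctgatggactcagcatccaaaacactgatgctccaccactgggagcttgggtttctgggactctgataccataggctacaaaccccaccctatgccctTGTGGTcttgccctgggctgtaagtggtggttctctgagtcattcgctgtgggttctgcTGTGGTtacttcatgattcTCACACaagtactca
Nkg7: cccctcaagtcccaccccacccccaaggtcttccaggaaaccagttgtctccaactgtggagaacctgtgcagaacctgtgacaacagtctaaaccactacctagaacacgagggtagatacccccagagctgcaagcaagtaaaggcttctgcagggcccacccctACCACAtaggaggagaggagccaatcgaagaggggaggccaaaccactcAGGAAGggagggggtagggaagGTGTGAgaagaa
Cd3g: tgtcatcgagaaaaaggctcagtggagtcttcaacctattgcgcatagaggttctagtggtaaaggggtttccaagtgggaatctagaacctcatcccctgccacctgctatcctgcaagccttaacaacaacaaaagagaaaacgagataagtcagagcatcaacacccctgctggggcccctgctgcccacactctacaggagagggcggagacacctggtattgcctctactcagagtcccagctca
The T-box core was found in these windows of 3 of the 8 genes with a promoter entry, namely Gzmk (at 74 to 69 and at 49 to 44 bases before the start), Gzmb (15 to 10) and Nkg7 (12 to 7). For Gzmk and Gzmb, alone of the 8, no annotated transcript of the gene held the bases just after this start. Their start sites, and so these distances, are less certain. Of all 32851 promoter windows of this length, 12.3% held it. The RUNX core was also in 3 of the 8 (Gzma, Gzmb and Nkg7, against 14.0% of all windows) and the ETS core in 3 of the 8 (Cd3e, Cd3d and Nkg7, against 29.5%). Cd8a, like Cd3g, held none of the 3 cores, and Cd8b1 and Ccl5 had no entry. A match describes letters only and shows no binding.

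At 6 months the diaphragm held far more RNA of these genes than the limb muscles did. Summed over the 10 genes, the female diaphragm had 0.675 CPM in the lowest library, 3.98 in the median and 50.6 in the highest, whereas the female gastrocnemius had 0.105, 0.169 and 0.383. The female soleus (0.0923, 0.276 and 1.32) and the female tibialis anterior (0.0386, 0.163 and 0.296) were as low as the gastrocnemius. Every female 6-month diaphragm lay above all gastrocnemius and tibialis anterior libraries, and only the highest soleus library lay within the diaphragm range. In males the sum was 1.18, 1.68 and 2.65 CPM in the diaphragm against a highest limb library of 0.403, so the groups did not overlap.

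**Figure D1:**
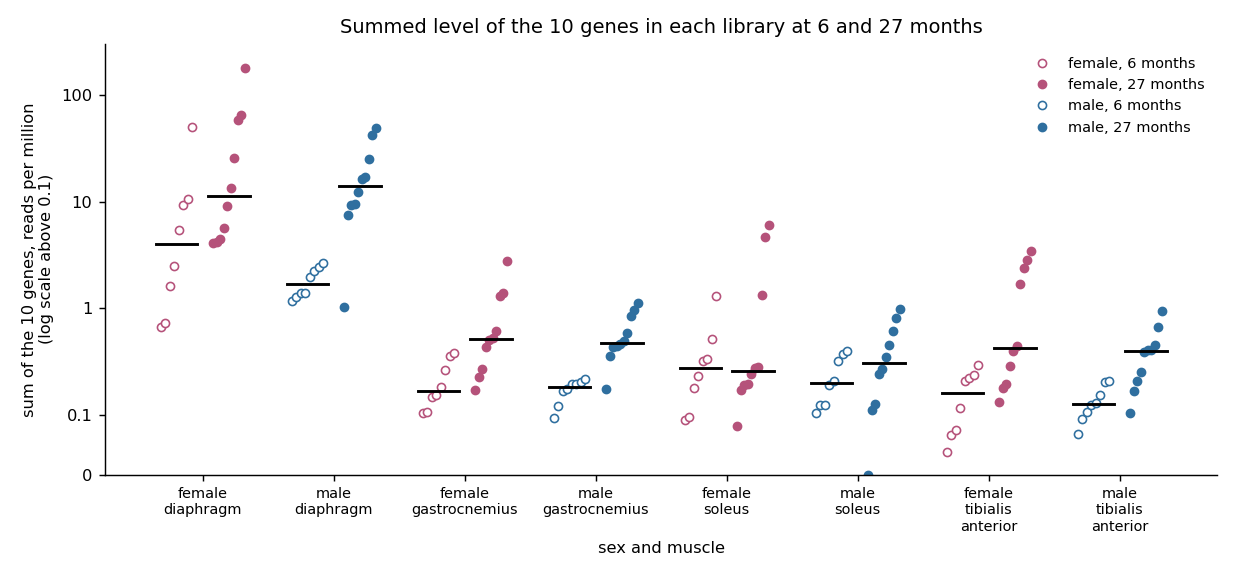
Summed level (CPM) of the 10 genes in each library at 6 (open) and 27 months (filled), by sex and muscle, on an axis that is logarithmic above 0.1, where points are libraries and bars are medians. At 6 months the medians were 3.98 in female and 1.68 in male diaphragm and between 0.127 and 0.276 in the limb muscles, and at 27 months they were 11.2 and 14.2 in diaphragm and between 0.259 and 0.513 in the limb muscles.

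By the edgeR quasi-likelihood test, with p adjusted over all genes after Benjamini and Hochberg, 9 of the 10 genes were higher in female diaphragm than in gastrocnemius (fold above 1.5 and adjusted p below 0.05), 8 than in soleus and 8 than in tibialis anterior. Of all genes tested, 30.6%, 20.7% and 32.8% were higher in diaphragm by that rule, and the median log2 difference of all genes was 0.14, 0.01 and 0.14. Cd3e was higher by 4.42 ± 0.88 (log2 difference ± SE, diaphragm minus gastrocnemius), Cd8a by 4.61 ± 1.01 and Ccl5 by 4.77 ± 1.07. Gzma, the granzyme that natural killer cells also carry in quantity, did not pass against any limb muscle (difference 1.37, adjusted p = 0.169 against gastrocnemius), and Gzmb did not pass against soleus or tibialis anterior. Gzmk had 86 reads over the 8 female diaphragm libraries, 1 read in gastrocnemius, and 0 in soleus and in tibialis anterior, which allow at most 0.00564 and 0.00501 CPM.

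In males, 5 genes were higher in diaphragm than in gastrocnemius, 4 than in soleus and 3 than in tibialis anterior, beside 22.9%, 16.4% and 23.9% of all genes. The Cd3e and Cd3g chains passed in all 3 male comparisons, Cd3e by 2.95 ± 0.84 and Cd3g by 4.26 ± 0.98 against gastrocnemius. Gzmk, Gzmb, Cd8b1 and Ccl5 passed in none of them. Gzma, which did not pass in females, passed here against gastrocnemius alone (2.91 ± 1.36). The 6-month male diaphragms are among the libraries that chose the group, where Gzmk was low, so these male counts are not independent of the choice.

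Gzmk encodes granzyme K, a granule protease that is typical of memory CD8 T cells rather than of freshly armed killers. In female diaphragm at 6 months Gzmk had 0 CPM in the lowest, 0.010 in the median and 1.03 in the highest of 8 libraries, with a read in 4 of them. At 27 months it had 0.0877, 0.916 and 5.79 CPM, with reads in all 10 libraries. All 10 old females lay above the young median and 5 lay above the highest young library, so the groups overlapped. The log2 fold change was 3.17 ± 1.08 (SE, n = 8 and 10), which did not pass (edgeR quasi-likelihood test, adjusted p = 0.120). In between, the medians were 0.185 CPM at 12 months, 0.569 at 18, 0.179 at 21 and 0.231 at 24, and each of these groups overlapped its neighbours.

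In male diaphragm, where the gene was chosen, Gzmk had 3 reads in all at 6 months, in 2 of 8 libraries, and at most 0.0351 CPM. At 27 months it had 0.0503 CPM in the lowest, 0.425 in the median and 4.4 in the highest of 10 libraries. The male groups did not overlap, and the pooled rate was 150 times as high, with a 95% counting interval from 51.2 to 730 that covers counting error only. The male medians at 12, 18, 21 and 24 months were 0.202, 0.0792, 0.177 and 0.0859 CPM, with a read in 6 of 7, 5 of 6, 5 of 7 and 8 of 10 libraries. All 4 medians lay above the highest young male library, and each of these groups overlapped the 27-month group.

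**Figure D2:**
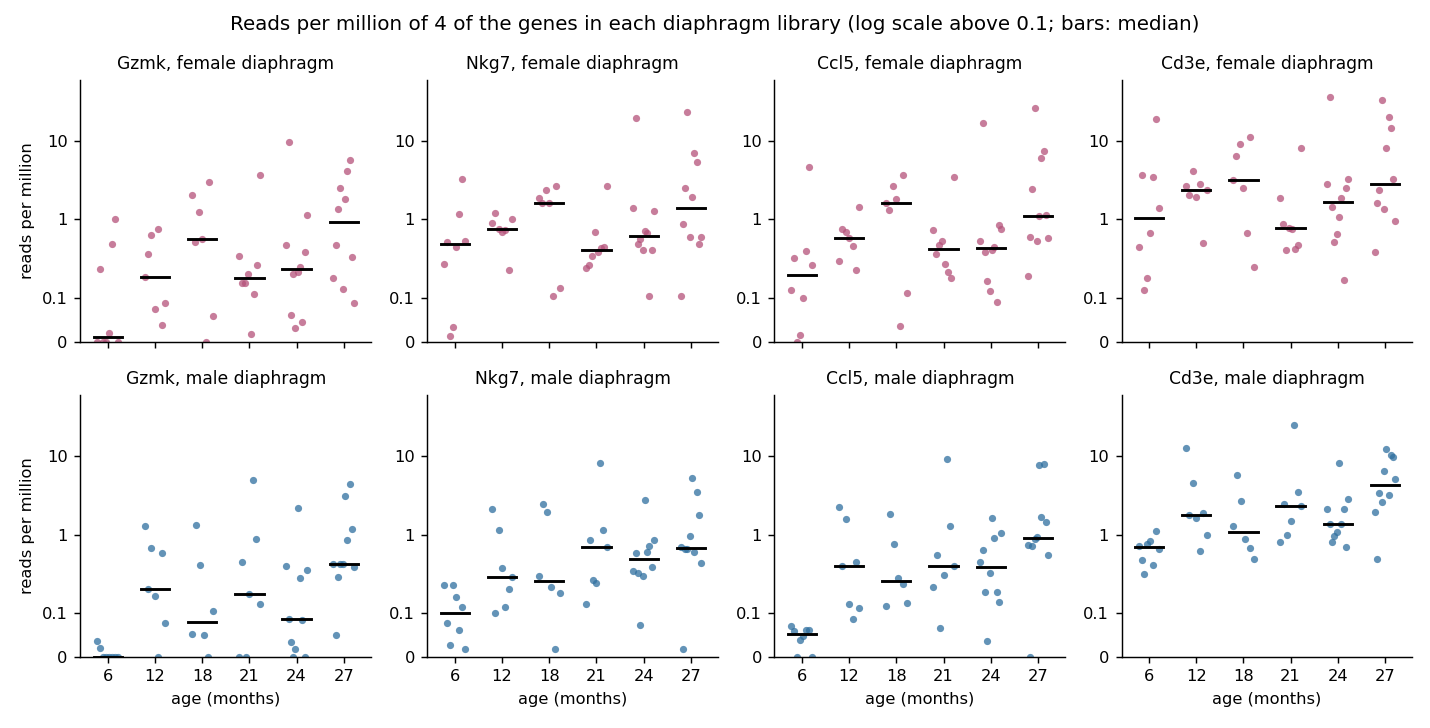
Level (CPM) of Gzmk, Nkg7, Ccl5 and Cd3e in each diaphragm library against age in months for females and males, on an axis that is logarithmic above 0.1, with bars at the medians. The median of Gzmk goes from 0.010 to 0.916 in females and from 0 to 0.425 in males between 6 and 27 months, and the ages in between overlap with both.

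Gzmb, the granzyme of fully armed killer cells, gave 0, 0.0940 and 0.217 CPM in the lowest, median and highest 6-month female diaphragm and 0, 0.179 and 8.07 CPM at 27 months. The highest value belongs to replicate 3, and 2 of the 10 old females had no read. Its log2 fold change of 3.66 ± 1.15 did not pass (adjusted p = 0.0856). Gzma, which acts in a different way from granzyme B inside the target cell, showed the smallest shift of the granzymes, from a median of 0.0602 to 0.107 CPM (1.58 ± 0.79, adjusted p = 0.343). In males the median of Gzmb was 0 at 6 and 0.133 CPM at 27 months, and that of Gzma was 0.0583 and 0.0799 CPM.

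The CD3 chains carry the signal of every T cell, whether CD4 or CD8. In female diaphragm Cd3e went from 0.128, 1.05 and 18.9 CPM (lowest, median, highest) at 6 months to 0.391, 2.79 and 33.1 CPM at 27 months. The old females reached above the young ones in only 2 of 10 libraries, because replicate 6 of the young group was far above its group. Changes of Cd3e, Cd3d and Cd3g were close to each other at 1.55 ± 0.84, 1.58 ± 0.94 and 1.53 ± 0.77 on the log2 scale, and none passed (adjusted p between 0.361 and 0.469). In males, Cd3e had 0.311, 0.689 and 1.11 CPM at 6 months and 0.486, 4.21 and 12.1 at 27 months, and 9 of the 10 old males lay above every young male.

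Cd8a and Cd8b1 encode the chains of CD8, the co-receptor that sets cytotoxic T cells apart from CD4 helper cells. Cd8a had 0, 0.409 and 7.12 CPM in young and 0.340, 1.31 and 36.3 CPM in old female diaphragm, and Cd8b1 had 0, 0.267 and 2.01 and then 0.0668, 0.754 and 21.8 CPM. For both genes 3 of 10 old females exceeded every young one. The log2 fold changes were 2.52 ± 0.95 and 2.92 ± 1.10, with adjusted p of 0.176 and 0.175. Old males had 0.0335, 2.61 and 7.57 CPM of Cd8a against 0.103, 0.185 and 0.696 in young males.

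Nkg7 encodes a membrane protein of cytotoxic granules and is also abundant in natural killer cells. It had 0.0142, 0.481 and 3.24 CPM in young and 0.105, 1.39 and 23.5 CPM in old female diaphragm, a log2 change of 2.74 ± 0.85 with an adjusted p of 0.0838, the smallest of the 10. Ccl5, a chemokine that T cells, natural killer cells and macrophages release, had 0, 0.196 and 4.65 and then 0.191, 1.12 and 26.0 CPM (3.00 ± 0.98, adjusted p = 0.103). Old and young females overlapped for both genes, with 3 of 10 old libraries above the highest young one. In male diaphragm, Ccl5 did not exceed 0.0703 CPM in any young library, and its old libraries had 0, 0.906 and 7.90 CPM.

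By edgeR's quasi-likelihood test none of the 10 genes passed in female diaphragm at 27 against 6 months, beside 0.543% of all genes called higher. All 10 log2 fold changes were above 0, with a median of 2.63 beside 0.03 over all 16193 genes tested. An unadjusted p below 0.05 was found for 7 of the 10, beside 2285 of the 16193 genes. DESeq2 called 4 of the 10 (Gzmk, Gzmb, Nkg7 and Ccl5) and limma-voom none. With the run of sample numbers as a term edgeR called 1, Nkg7, without old replicate 0 it called 1, and without young replicate 6 it called 2. The share of all genes called was not counted under these alternatives, so their counts have no such reference. In male diaphragm 9 of 10 genes (all but Gzma) were past the same limits beside 4.16% of all genes, from the contrast that chose them. That male count was 1 with the run of sample numbers as a term and 9 without the libraries that stand apart.

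**Figure D3:**
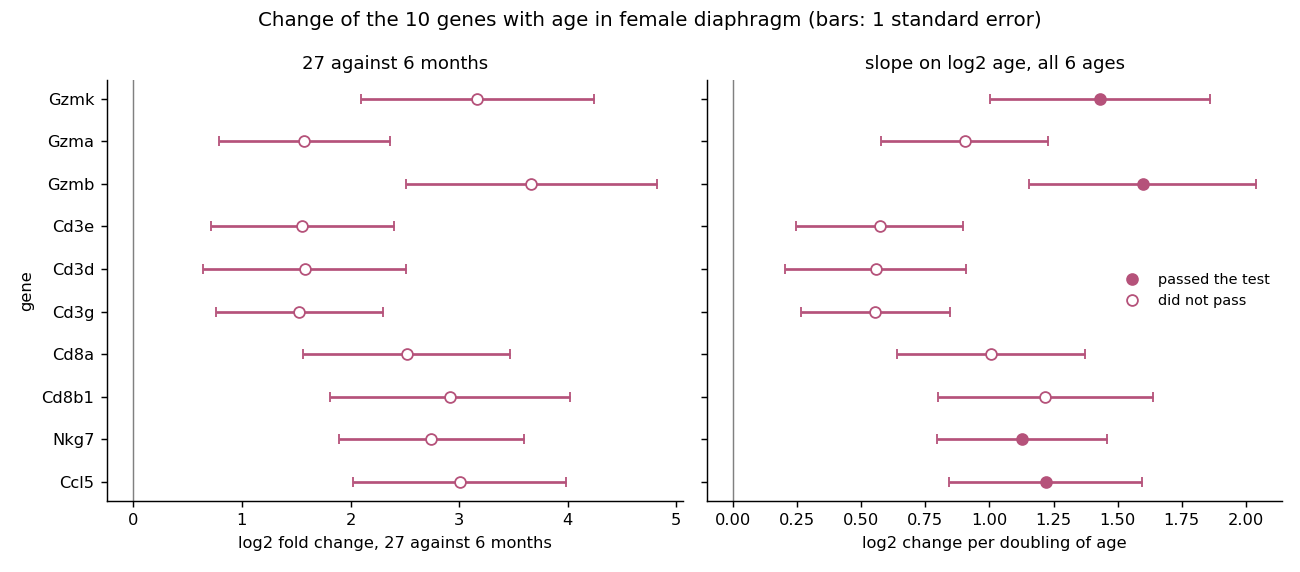
Log2 fold change of each of the 10 genes in female diaphragm at 27 against 6 months (left) and its log2 change per doubling of age over all 6 ages (right), with bars of 1 standard error derived from the edgeR test and filled points for those that passed. All points lie above 0, from 1.53 for Cd3g to 3.66 for Gzmb on the left, and Gzmk, Gzmb, Nkg7 and Ccl5 are filled on the right.

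Over all 6 ages, 4 of the 10 genes rose in female diaphragm with the logarithm of age (edgeR quasi-likelihood test of the slope, adjusted p below 0.05), beside 1.71% of all genes. Gzmb rose by 1.6 ± 0.44 per doubling of age (log2 ± SE, adjusted p = 0.0184), Nkg7 by 1.13 ± 0.33 (adjusted p = 0.0302), Gzmk by 1.43 ± 0.43 (adjusted p = 0.0331) and Ccl5 by 1.22 ± 0.38 (adjusted p = 0.0410). Gzma had a slope of 0.90 ± 0.33 that did not pass (adjusted p = 0.0866). The CD3 chains had slopes of 0.56 to 0.57 and CD8 chains of 1.01 and 1.22 that did not pass, with adjusted p of 0.308 to 0.428 and of 0.0985 and 0.0768. Without the libraries that stand apart 5 genes rose, with the run of sample numbers as a term 5, by DESeq2 6 and by limma-voom none. For these alternatives, too, the share of all genes was not counted.

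In the limb muscles most of the genes were near the limit of detection, and only 1 or 2 per muscle and sex had enough reads to be tested at 27 months. A gene enters this test through the libraries where it has most reads, so calls among the tested genes alone are no support. Cd3e in female tibialis anterior entered it through old libraries and was past the limits there, with a log2 fold change of 2.58 ± 0.80 (adjusted p = 0.0128), beside 5.93% of all genes. With no filter on low counts its adjusted p was 0.0181. Its old libraries had 0 CPM in the lowest, 0.0875 in the median and 0.857 in the highest against 0, 0.0489 and 0.103 at 6 months. The reads lay in replicates 0, 3, 5 and 9, with 33 to 65 reads of Cd3e each, and the other 6 libraries had at most 6 reads. Without any 1 of these 4 libraries the gene fell below the filter on low counts, and limma-voom did not call it while DESeq2 did.

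Liver genes also moved in the female tibialis anterior: all 7 were called higher at 27 months, and their sum was 0.686, 57.8 and 492 CPM (lowest, median, highest) against 0.145, 7.25 and 16.3 CPM at 6 months. In replicates 0, 3, 5 and 9, which were high in Cd3e, the liver sum was 82.9, 0.686, 3.33 and 492 CPM, so in 2 of them it lay within the young range. The macrophage sum was 141, 47.95, 98.6 and 93.9 CPM in these libraries, against a highest 6-month value of 58.7 CPM. The part of these other tissues in the Cd3e change was not tested.

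No other limb muscle had a call at 27 months by edgeR. Cd3e changed by 1.40 ± 0.63 in female gastrocnemius (adjusted p = 0.0858), by 1.53 ± 0.70 in male gastrocnemius (adjusted p = 0.101), by 1.26 ± 0.91 in female soleus (adjusted p = 0.357) and by 0.25 ± 1.13 in male soleus (adjusted p = 0.961). Cd3g changed by 1.15 ± 0.63 in female gastrocnemius and by 1.12 ± 1.34 in male soleus, and Cd8a by 1.35 ± 0.85 in male tibialis anterior. Of all genes, 4.08%, 3.88%, 1.72%, 0.808% and 2.81% were called higher in female gastrocnemius, male gastrocnemius, female soleus, male soleus and male tibialis anterior. Cd3e had an unadjusted p below 0.05 in the gastrocnemius of both sexes, as did 6132 of all 15376 genes tested in females and 5411 of 15227 in males. limma-voom and DESeq2 called none of the genes in these 5 muscle and sex combinations. At the other ages Cd3g was called in female gastrocnemius at 24 months (1.94 ± 0.62, adjusted p = 0.0176).

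Slopes over all ages were tested in the same muscles. Cd3e rose with log age in female gastrocnemius (0.81 ± 0.26 per doubling, adjusted p = 0.0106), male gastrocnemius (0.85 ± 0.28, adjusted p = 0.0180) and female tibialis anterior (1.18 ± 0.36, adjusted p = 0.00961). Cd3g rose in female gastrocnemius (0.83 ± 0.26, adjusted p = 0.010) and Cd8a in male tibialis anterior (0.89 ± 0.35, adjusted p = 0.0472). These were the genes tested there, chosen by the same filter, and of all genes 16.6%, 13.3%, 15.1% and 11.6% rose in female gastrocnemius, male gastrocnemius, female tibialis anterior and male tibialis anterior. None of the genes tested rose in soleus, beside 14.9% of all genes in females and 3.54% in males. In soleus no unadjusted p was below 0.05, and DESeq2 and limma-voom called none. With no filter on low counts there were calls in the soleus of both sexes, given below, for which the share of all genes was not counted.

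The genes below the filter can still be described by their reads. Gzmk had 0 reads over the 8 young libraries in 5 of the 6 limb combinations and 1 read in the female gastrocnemius. At 27 months it had 39 reads in female tibialis anterior (a pooled rate at least 11.1-fold higher, taking 3 counts over the young group as the floor) and 13 in male gastrocnemius (at least 3.50-fold). In the soleus of females and males and in male tibialis anterior it had 9, 6 and 8 reads (at least 2.10-, 1.65- and 2.16-fold), and in female gastrocnemius 10 reads, a ratio of 8.29 with a counting interval of 1.18 to 360. Gzmk reads were in 6 of 10 old libraries of gastrocnemius and of tibialis anterior in either sex, in 3 of 10 female and in 1 of 10 male soleus libraries. These intervals and floors cover counting error only.

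With no filter on low counts, edgeR called 7 of the 10 genes higher in female tibialis anterior at 27 months, among them Gzmk (adjusted p = 0.00283), beside 5.74% of all genes in that fit. It called 3 in female gastrocnemius (Gzmb, Nkg7 and Ccl5), 3 in male gastrocnemius (Gzmk, Cd3g and Ccl5), 1 in female soleus (Cd3d), 1 in male tibialis anterior (Nkg7) and none in male soleus. In the same order 3.4%, 3.42%, 1.59%, 2.23% and 0.605% of all genes were called higher without the filter. Ccl5 in female tibialis anterior went from 1 read in the 8 young to 80 reads in 9 of 10 old libraries. Male soleus went the other way for Ccl5, with 3 reads at 6 months and 0 at 27 months, which allows at most 0.00412 CPM.

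The old limb muscles stayed well below the diaphragm. Summed over the 10 genes, the highest limb median at 27 months was 0.513 CPM, in female gastrocnemius, against 11.2 and 14.2 CPM in female and male diaphragm. Among the limb muscles the medians at 27 months lay between 0.259 and 0.513 CPM, and every pair of limb groups overlapped. Per kilobase of transcript, the levels of the diaphragm at 27 months ranked Ccl5 (median 2.10 CPM per kb), Cd3e (1.91), Cd3g (1.70) and Nkg7 (1.58) at the top in females, followed by Gzmk (0.891), Cd8b1 (0.509), Cd8a (0.419), Cd3d (0.360), Gzmb (0.125) and Gzma (0.122). All of these ranges overlapped between genes.

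Whether the sexes differ in the change from 6 to 27 months was asked of a sex by age interaction in each muscle. None of the tested genes passed in any muscle by edgeR's test, where 0% (diaphragm), 1.6% (gastrocnemius), 0.855% (soleus) and 1.73% (tibialis anterior) of all genes passed. All 10 were tested in diaphragm, which is a description, since the male change chose the group. Gzmk, Gzma, Gzmb, Cd3d and Cd8b1 had too few reads to be tested in any limb muscle. Nkg7 was also not tested in gastrocnemius, nor Ccl5 in tibialis anterior. In diaphragm the largest difference was that of Gzmk, whose change was smaller in females by a log2 value of -3.71 ± 1.94, given with no test, since the male change chose the gene. Ccl5 in soleus was the only gene in a limb muscle with an unadjusted p below 0.05, and limma-voom called none in any muscle.

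Whether the female diaphragm changed more than the female limb muscles was tested in the same way. No gene passed against gastrocnemius, soleus or tibialis anterior, beside 3.2%, 5.07% and 4.32% of all genes, and limma-voom called none. Gzma, Gzmb and Cd3d had an unadjusted p below 0.05 against soleus, in opposite directions, with differences of 2.53 ± 1.23 for Gzma and 3.11 ± 1.27 for Gzmb in favour of the diaphragm, while Cd3d, at 0 reads in young soleus, went the other way. For Cd3e the difference was between -1.02 and 0.28 in the 3 comparisons, with standard errors of 1.03 to 1.13.

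The genes did not all move by the same amount, which was tested with ratios within each library. In female diaphragm the log2 ratio of Gzmk to Cd3e reads was -4.61 ± 1.25 at 6 months (mean ± SD, n = 8) and -2.30 ± 1.05 at 27 months (n = 10). The difference of 2.31 passed a two-sided exact permutation test (p = 0.000411, adjusted p = 0.0163 over the 42 ratios tested). The ratio of Ccl5 to Cd3e went from -2.83 ± 0.81 to -1.19 ± 0.81, a difference of 1.63 (exact permutation test, adjusted p = 0.0163). The ratio of Cd8a to Cd4, which sets the cytotoxic co-receptor against the helper one, went from -2.56 ± 1.19 to -1.07 ± 1.00 (difference 1.5, exact permutation test, adjusted p = 0.0435). So per read of Cd3e the old females had more Gzmk and Ccl5, and per read of Cd4 more Cd8a, although single libraries of the 2 ages overlapped.

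The ratios to Cd3e of Cd8a (difference 0.93, adjusted p = 0.271), Nkg7 (0.54, adjusted p = 0.488) and Gzma (-0.75, adjusted p = 0.709) did not pass the exact permutation test, and none of the 36 limb ratios did. With 2 reads added to each count in place of 0.5 the differences for Gzmk, Ccl5 and Cd8a to Cd4 were 1.31, 1.23 and 1.19 and none passed (adjusted p = 0.150, 0.0950 and 0.0950), whereas with 0.1 reads added they were 3.49, 1.99 and 1.81 and all 3 passed (adjusted p = 0.0106, 0.0110 and 0.0310). Without the libraries that stand apart they were 2.23, 1.41 and 1.16, with adjusted p of 0.0661, 0.0679 and 0.218, and within the second run of sample numbers they were 2.49, 1.67 and 1.87, with adjusted p of 0.0769, 0.0769 and 0.0793. Leaving out 1 library at a time, the ratios of Gzmk and Ccl5 to Cd3e passed in all 18 cases, whereas that of Cd8a to Cd4 ran from 1.16 to 1.69 and no longer passed in 15 of 18. In male diaphragm the same 3 differences, given as a description, were 2.80, 1.73 and 0.60. The first rests on 3 reads of Gzmk at 6 months and was 1.26 with 2 reads added and 4.58 with 0.1.

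**Figure D4:**
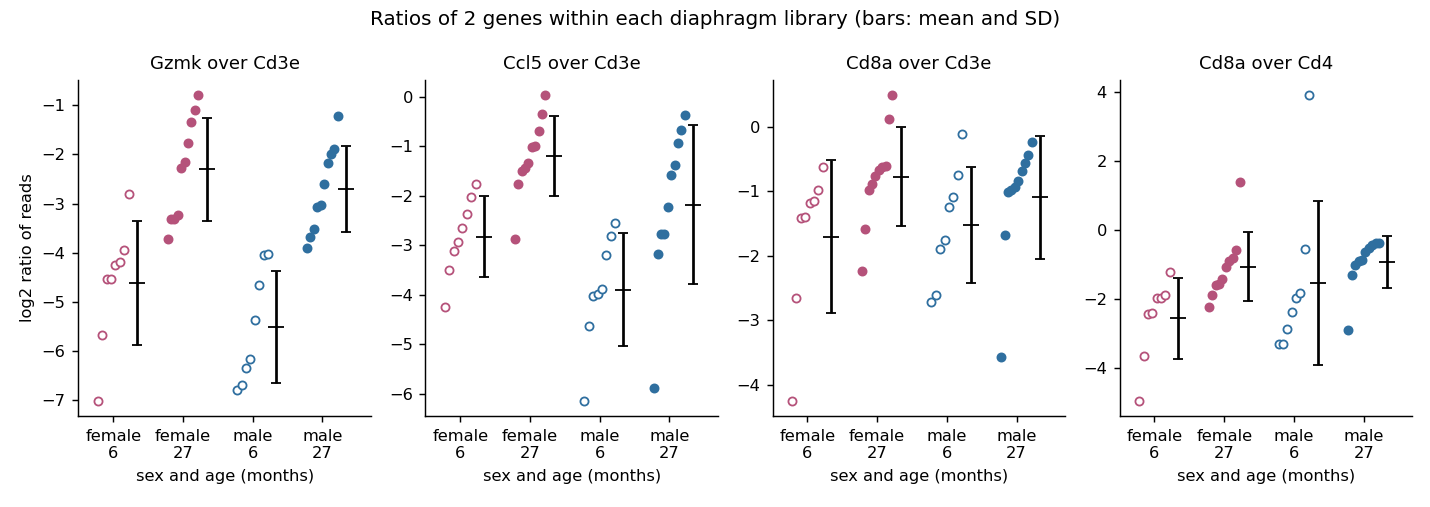
Log2 ratio of reads of Gzmk, Ccl5 and Cd8a to Cd3e and of Cd8a to Cd4 in each diaphragm library at 6 (open) and 27 months (filled) for females and males, with the mean and SD of each group. In females the mean of Gzmk over Cd3e is -4.61 at 6 and -2.30 at 27 months, and that of Cd8a over Cd4 is -2.56 and -1.07.

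Within an age the mice differed widely. Summed over the 10 genes, the 27-month female diaphragms spread from 4.08 to 179 CPM, and 3 of them (replicates 3, 6 and 7) were at or above 58.3 CPM while 6 were at or below 13.4 CPM. In replicate 3 Gzmb (8.07 CPM), Cd8a (36.3 CPM) and Ccl5 (26.0 CPM) were at their highest, whereas Gzmk was highest in replicate 7 (5.79 CPM) and only 2.5 CPM in replicate 3. The male 27-month sums spread from 1.02 to 49.3 CPM, and replicate 1 alone did not lie above every young male.

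Across the 10 old female diaphragms Gzmk and Cd3e rose and fell together (Pearson r = 0.876, permutation adjusted p = 0.00853 over 16 correlations, Spearman rho = 0.879, permutation adjusted p = 0.0258). Without the 2 libraries farthest from the median of Gzmk, r was 0.865. The 16 correlations include those of male diaphragm, so the adjusted p are not independent of the choice. The unadjusted permutation p in females were 0.0016 for r and 0.00161 for rho. Across the 10 old male diaphragms, whose libraries took part in the choice, r was 0.873 and rho 0.721, and r was 0.712 without the 2 farthest libraries, given as a description. Without the libraries that stand apart r was 0.878 in females and 0.888 in males. Within a run of sample numbers r was 0.885 over 8 females and 0.910 over 6 males, and in the males it was -0.07 without the 2 farthest, so there it rests on those 2 libraries.

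Cd3e also went with Cd79a, a chain of the B cell receptor, in female (r = 0.810, permutation adjusted p = 0.0187, rho = 0.794, permutation adjusted p = 0.0476) and, as a description, male diaphragm (r = 0.924, rho = 0.830). The unadjusted permutation p in females were 0.00468 for r and 0.00893 for rho. The adjusted p of rho lies close to 0.05 and counts the male diaphragm correlations, so it decides nothing. Without the libraries that stand apart r was 0.718 and rho 0.717 in females, and r was 0.928 in males. Without the 2 farthest libraries r was 0.800 and 0.813, and within a run of sample numbers it was 0.842 over 8 females and 0.925 over 6 males (0.349 in the males without the 2 farthest). None of the 12 limb correlations passed the permutation test.

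**Figure D5:**
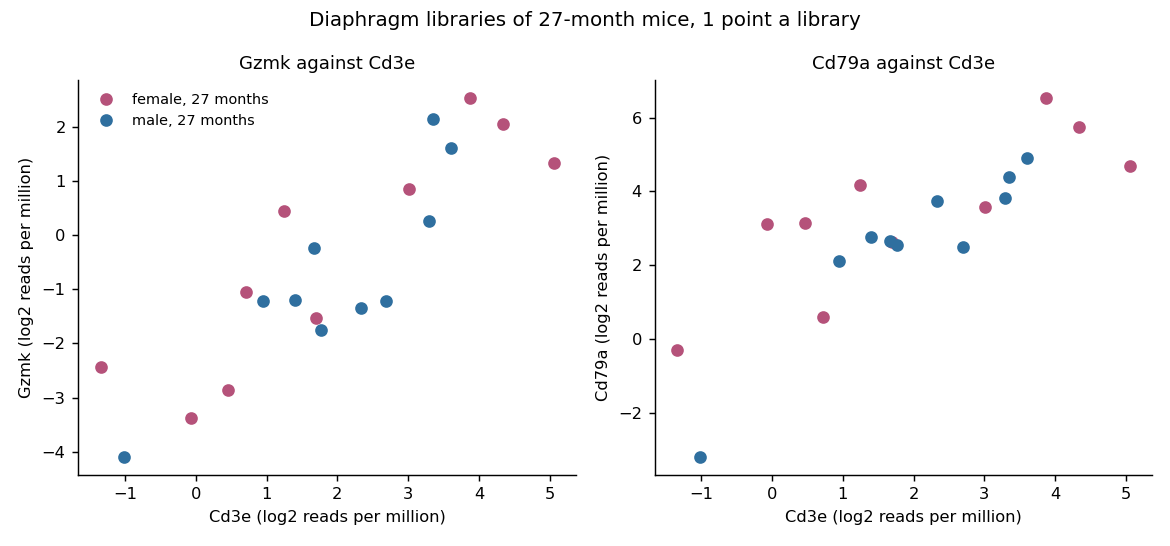
Gzmk against Cd3e (left) and Cd79a against Cd3e (right) in the 27-month diaphragm libraries of both sexes, in log2 CPM. Both pairs run upward in each sex, with r of 0.876 and 0.810 in females and 0.873 and 0.924 in males.

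Genes of other cell types were read beside the T cell genes, and their part in the results above was not tested. The sum of the 9 measured B and plasma cell genes was 3.85, 66.0 and 675 CPM in young and 31.3, 129 and 1504 CPM in old female diaphragm (lowest, median, highest), and 12.8, 33.98 and 74.6 and then 1.73, 166 and 252 CPM in males. No gene of that list passed in female diaphragm (median log2 fold change 1.61). The 2 old diaphragms highest in B cell genes, female replicates 6 and 7 with 1504 and 946 CPM, also had the highest Gzmk.

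Natural killer cells use the same granule genes, and their sum of 11 genes was 0.753, 1.94 and 11.8 CPM in young and 1.28, 2.90 and 51.6 CPM in old female diaphragm. Ncr1, which marks natural killer cells, stayed low, with medians of 0.113 and 0.131 CPM and a log2 fold change of -0.01. In replicate 3, where the natural killer sum of 51.6 CPM was the highest, Ncr1 had 0.0210 CPM. No gene of this list was called in female diaphragm at 27 months (7 tested, median log2 fold change 1.15). Over all ages 1 of the 7 rose, beside 1.71% of all genes, namely Klrc1, a receptor that CD8 T cells also carry (1.49 ± 0.45 per doubling, adjusted p = 0.0373). The slopes of Klre1 (1.06 ± 0.45), Klrd1 (0.62 ± 0.31), S1pr5 (0.56 ± 0.23), Klrk1 (0.51 ± 0.24) and Klrb1c (0.35 ± 0.24) were also above 0 but did not pass. That of Ncr1 was -3.8e-05 ± 0.29. Whether natural killer cells had a part in the changes was not tested. Klrk1, an activating receptor that CD8 T cells carry too, was called in female tibialis anterior (2.21 ± 0.50, adjusted p = 0.000660).

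Macrophage genes, from 12 genes, had sums of 242, 490 and 1139 CPM in young and 415, 560 and 955 CPM in old female diaphragm, with none called and a median log2 fold change of 0.30. Genes of lymph node stroma and follicles (171 and 197 CPM as medians) and of the mesothelium that covers the diaphragm (240.5 and 142 CPM) were not called there at 27 months either. Over all ages 2 of the 5 tested mesothelium genes fell in female diaphragm, Msln by 0.55 ± 0.13 and Upk3b by 0.49 ± 0.11 per doubling on the log2 scale (adjusted p = 0.00482 and 0.00423), and their part in the results above was not tested. The liver sum of the diaphragm was 93.6 CPM in young and 14.4 CPM in old females, and red blood cell genes were 841 and 537 CPM. The 9 muscle fibre genes had a median change of 0.04 with none called.

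Further T cell genes were read from lists of receptor and signalling, cytotoxic effector, and checkpoint and residence genes. In female diaphragm 0 of 17, 0 of 19 and 1 of 14 tested genes rose at 27 months, beside 0.543% of all genes. The median log2 fold changes were 1.11, 1.24 and 1.44 beside 0.03 over all genes. The gene that rose was Cxcr6, a chemokine receptor of T cells that reside in tissues, from 0.708, 1.37 and 4.82 to 1.14, 2.84 and 17.9 CPM (1.5 ± 0.40, adjusted p = 0.0379). Eomes, a T-box factor of cytotoxic cells and not of CD8 T cells alone, went from a median of 0.209 to 1.48 CPM (3.35 ± 1.01, adjusted p = 0.0749), and Prf1, the pore-forming perforin, from 0.129 to 0.699 CPM (2.77 ± 0.97, adjusted p = 0.132). Pdcd1, the checkpoint receptor PD-1, went from 0.304 to 1.07 CPM (1.53 ± 0.71, adjusted p = 0.306). Over all ages 0 of the 17 receptor, 2 of the 19 effector and 2 of the 14 checkpoint and residence genes rose, beside 1.71% of all genes. The effector genes were Eomes, by 1.36 ± 0.38 per doubling (adjusted p = 0.0225), and Rab27a, which serves the release of granules, by 0.30 ± 0.09 (adjusted p = 0.0326). Of the checkpoint and residence genes, Cxcr6 rose by 0.52 ± 0.16 (adjusted p = 0.0474).

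In the limb muscles 3 of 14, 3 of 12 and 4 of 8 genes of these lists rose in female gastrocnemius, beside 4.08% of all genes, and 6 of 13, 4 of 12 and 3 of 8 in female tibialis anterior, beside 5.93%. Male gastrocnemius had 2 of 13, 3 of 12 and 3 of 8 that rose, beside 3.88%, and 1 that fell, Tbx21 (-0.68 ± 0.24). Female soleus had 0 of 12, 1 of 12 and 0 of 9 (1.72% of all genes), male soleus 0 of 13, 1 of 12 and 0 of 10 (0.808%), and male tibialis anterior 2 of 12, 0 of 11 and 0 of 5 that rose (2.81%) and 1 that fell, Thy1 (-0.88 ± 0.15). These counts are over the list genes that passed the filter on low counts. A gene passes it through the libraries where it has most reads, so calls among the tested genes alone are no support for a rise of the lists. The 1 gene in each soleus is also near the shares of all genes. Medians over these 3 lists ran from -0.17 in male soleus to 0.98 in female tibialis anterior.

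Zap70, the kinase that binds the activated receptor, rose in female (0.78 ± 0.23) and male gastrocnemius (1.01 ± 0.28) and in female (0.80 ± 0.30) and male tibialis anterior (1.11 ± 0.29). Tcf7, a factor of naive and memory T cells, rose in 3 and Lck, the kinase that starts receptor signalling, in 2 muscle and sex combinations. Unc13d and Stx11, which serve the release of granules, rose in 4 and 3 combinations, Stx11 by 1.86 ± 0.27 in female tibialis anterior. Neither is specific to T cells. Il2rb, a receptor chain for interleukins on cytotoxic cells, rose by 3.72 ± 0.71 in female tibialis anterior and by 1.65 ± 0.47 in female gastrocnemius, and Id2 rose in female tibialis anterior and male soleus.

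Cxcr6 also rose in female gastrocnemius (1.16 ± 0.40), male gastrocnemius (1.67 ± 0.53) and female tibialis anterior (1.83 ± 0.59). Havcr2, a checkpoint receptor, rose in the gastrocnemius of both sexes, and Cxcr3, the receptor for Cxcl9 and Cxcl10, rose in female gastrocnemius and tibialis anterior. Among the ligands, Cxcl10, which interferon induces, rose by 3.54 ± 0.42 in female and 2.54 ± 0.46 in male gastrocnemius and by 3.92 ± 0.53 in female and 3.21 ± 0.81 in male tibialis anterior.

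Of the regulatory T cell genes, Foxp3, their defining factor, rose in male tibialis anterior (1.36 ± 0.46, adjusted p = 0.0296) and Il1rl1 fell in female soleus (-0.71 ± 0.20), and in female diaphragm none of 6 passed. Outside the T cell lists, Jchain, an antibody chain of plasma cells, rose in 4 limb combinations, by 2.59 to 3.09. Of the tested B and plasma cell genes, 2 of 7 were called higher in female and 1 of 5 in male gastrocnemius, 1 of 5 in the tibialis anterior of each sex, and 0 of 9 and 0 of 7 in female and male soleus. Cxcl13, which draws B cells, rose in 5 limb combinations, by 2.32 ± 0.54 in male soleus and by 2.58 ± 0.51 in female tibialis anterior. Mpeg1 and Cd68 of macrophages rose in the gastrocnemius of both sexes and in female tibialis anterior. Of the 12 macrophage genes, 2 were called higher in female and 2 in male gastrocnemius and 6 in female tibialis anterior, beside 4.08%, 3.88% and 5.93% of all genes. In the other limb combinations 0 of the 12 were called.

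Over the 48 group means, the genes whose level followed that of Gzmk most closely were Ms4a4b (Spearman rho = 0.913), Gm7609 (0.902), Fcrl5 (0.898), Cxcl10 (0.897) and Eomes (0.895), out of 15529 genes with a mean above 0.1 CPM. Of the 10 genes themselves, Cd8a had rank 11 (0.882), Nkg7 rank 16 (0.865) and Ccl5 rank 17 (0.861), while Cd3d had rank 67 (0.810), Cd3e rank 76 (0.806), Cd8b1 rank 132 (0.784) and Cd3g rank 230 (0.756). The genes most like Cd3e were Sh2d2a (0.953), Serpina3g (0.920), Ccl22 (0.919), Zfp831 (0.911) and Bcl11b (0.909). The groups share libraries and the difference between diaphragm and limb, so these values are a description.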

How the data were processed

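RNA of 4 muscles from female and male C57BL/6J mice of 6 ages was sequenced in 407 libraries. Per the study's methods, the authors made strand-specific total RNA libraries after removal of ribosomal RNA, sequenced them as paired ends, and counted reads on a RefSeq-based gene model of mm10 in ArrayStudio. They deposited raw counts per gene for each library, which were used as deposited, with groups taken from the labels. Each sex and muscle was fitted separately over all ages with edgeR 4.0.16 (R 4.3.3): TMM scaling, the filterByExpr filter on low counts, the quasi-likelihood test, and Benjamini-Hochberg adjustment over all genes tested. A gene was called at 27 against 6 months past a fold of 1.5 and an adjusted p of 0.05, and a slope or an interaction past an adjusted p of 0.05. Standard errors of log2 changes were derived as the absolute coefficient without shrinkage over the square root of the test's F statistic. They are set beside edgeR's own log2 values, which are shrunken, so the 2 need not match the p exactly. CPM were computed from each library's total of reads on genes, with no further scaling. Ratios were taken as log2 after adding 0.5 reads, with exact two-sided permutation tests, and correlations with 100000 permutations (scipy 1.17.1). The 10 genes, the 13 gene lists and the rules for naming genes were chosen with earlier results of these data known. All 10 genes are named, with up to 4 genes of each list called in the most muscle and sex combinations (ties by smaller median adjusted p) and the genes that define a cell type, while Eomes, Prf1, Pdcd1, Tbx21, Thy1, Rab27a, Klrc1, Msln and Upk3b were named after their values were seen. 1 list gene that this rule would name is not reported here. P-values measure the spread between the libraries of a group. Alternatives were limma-voom (limma 3.58.1), DESeq2 1.42.0, other size factors, filters and thresholds, and leaving out libraries. Leaving out the libraries that stand apart or male soleus 18 months replicate 1, and for ratios and correlations also single libraries and single runs of sample numbers, was chosen after seeing the data. The edgeR step was tested on simulated data.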

Additional observations from a re-analysis of the deposited data

Results flagged for a closer look

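In 7 of the 48 groups, a library's summed level of the 10 genes lay far from the others of its group, judged by Dixon's gap on a log scale after adding 0.01 CPM. Chance alone marks about 1 in 20 groups. The libraries far above their groups were female diaphragm 24 months replicate 1 (151 CPM, the next 10.8), male soleus 18 months replicate 1 (35.5 CPM, the next 0.728), male gastrocnemius 24 months replicate 8 (4.43 CPM, the next 0.701) and female tibialis anterior 21 months replicate 0 (2.61 CPM, the next 0.420). Those far below were female diaphragm 12 months replicate 5 (2.03 CPM, the next 6.47), male diaphragm 27 months replicate 1 (1.02 CPM, the next 7.43) and male soleus 27 months replicate 2, which had 0 reads of all 10 genes (the next 0.113 CPM).

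Male soleus 18 months replicate 1 also held reads of Rag1 and Dntt, genes of the recombination of antigen receptors in developing lymphocytes, which no comparison above uses. It had 5213 reads of Rag1 and 775 of Dntt, whereas the next highest libraries of the series had 167 (male diaphragm 27 months replicate 4) and 104 (male diaphragm 21 months replicate 3). The same library had 1227 reads of Cd8a, 382 of Cd3e and 368 of Cd8b1, but 12 of Nkg7, 6 of Ccl5, 3 of Gzmb and 0 of Gzmk and Gzma. It enters the slopes of male soleus, where neither of the tested genes (Cd3e and Cd3g) passed with or without it, and no contrast of 27 with 6 months. What it holds was not tested.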

How the results depend on the processing

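Shares of all genes were counted for the main tests and, in the limb muscles at 27 months, with no low-count filter. Other counts in this section have no such reference. At 27 against 6 months, DESeq2 called 4 of the 10 genes in female diaphragm and the run of sample numbers as a term 1, against 0. In male diaphragm, given as a description, against 9, Bonferroni adjustment and the run left 1, limma-voom 3, and an adjusted p below 0.01 and the replicate block 4. Female tibialis anterior kept 0 of 1 under Bonferroni, an adjusted p below 0.01, limma-voom and the replicate block. With no filter on low counts the calls were 3 in female and male gastrocnemius, 1 in female soleus, 7 in female and 1 in male tibialis anterior. Leaving out 1 library at a time gave 0 to 2 calls in female diaphragm (1 without 27-month replicate 0, 2 without 6-month replicate 6), 7 to 9 in male diaphragm, and 0 to 1 in the gastrocnemius of either sex (female without 6-month replicate 6, male without 6-month replicate 0, 2, 3, 5, 6 or 7).

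Slopes of male diaphragm are not given, since its libraries chose the group. For slopes on log age, Bonferroni adjustment left 0 in female diaphragm, in female and male gastrocnemius and in female and male tibialis anterior. An adjusted p below 0.01 left 0 in female diaphragm, in the gastrocnemius of both sexes and in male tibialis anterior. limma-voom left 0 in female diaphragm, 1 in female gastrocnemius and 0 in female and in male tibialis anterior. The replicate block left 0, 1, 0 and 0 in the same order. DESeq2 and the run of sample numbers each gave 0 in male tibialis anterior. With no low-count filter 9 rose in female and 6 in male gastrocnemius, 3 in female and 1 in male soleus, and 7 in female and 4 in male tibialis anterior. The share of all genes that rose without the filter was not counted, so these counts are no result about the genes. The change of Cd3g, 27 against 6 months, male soleus, turned negative with the replicate block (-0.14) and with the run (-0.11), and that of Cd3g, slope on log age, male soleus, with limma-voom (-0.0851). Neither had passed its test.

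At 6 months, Bonferroni adjustment left 3, 2 and 4 genes higher in female diaphragm than in gastrocnemius, soleus and tibialis anterior, and 0 in each male comparison. Male diaphragm against tibialis anterior gave 5 in place of 3 with RLE size factors, no filter, the replicate block, and without the libraries that stand apart. In female diaphragm the ratio differences of Gzmk and of Ccl5 to Cd3e and of Cd8a to Cd4 no longer passed with 2 reads added (1.31, 1.23 and 1.19), without the libraries that stand apart (2.23, 1.41 and 1.16) or within the second run (2.49, 1.67 and 1.87). Leaving out 1 library, Cd8a to Cd4 ran from 1.16 to 1.69 and no longer passed in 15 of 18 cases, where it ran from 1.16 to 1.59, and the other 2 ratios passed in all 18. With 2 reads added 1 limb correlation passed, against 0, by an adjustment that counts the male diaphragm correlations. The cause of these changes was not tested, beyond the smaller or larger set of genes or libraries that an alternative makes by construction.

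Replicate numbers are shared between ages but name different mice. Same-numbered libraries of 6 and 27 months had deviations that correlated above 0.1 in 1 to 6 of 8 pairs per muscle and sex, and the lowest pair was negative throughout (-0.73 to -0.19), so the numbers do not pair the samples, and the replicate block results above are given for that reason only. Depth limits the limb results, where 8 or 9 of the 10 genes had too few reads to be tested.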
